A study of Mus musculus with 9 samples.

Results

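The secretory pathway and endoplasmic reticulum (ER) folding genes described here are a set of 50 mouse genes, chosen by symbol, whose products carry newly made proteins through the first steps of secretion. Of the 50, 49 had a probe set (a group of short probes for 1 transcript) listed with that gene alone, out of 18193 such genes on the array, and 48 were bright enough to be tested among 11575 tested genes. Sec61g, the small subunit of the translocon, was measured only together with other genes, and the 1 probe set of Tmed2 that lists no other gene was dim on all 9 arrays, with signals between 10.3 and 41.8. The genes fall into 5 groups by role. These are the translocon with its associated TRAP complex, folding in the ER lumen, the COPII coat of vesicles leaving the ER, the retrieval receptors, cargo receptors and COPI coat of the return route, and the regulators and stress response genes.

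Total RNA came from forelimb cells of Scx-GFP mouse embryos, in which green fluorescent protein reports the tendon gene Scx. The embryonic stages, named by day, were E11.5, the youngest, then E12.5, and E14.5, the oldest. All samples carried the reporter, were dissociated with trypsin and were sorted for GFP, so as far as the labels tell the groups differ in stage only, but they name 2 cell sorters without assigning them to samples. Each stage has 3 arrays, lettered A, B and C, of amplified RNA on a mouse expression array. Whether the arrays of 1 stage hold different litters is not given in the labels, so the p-values measure only the spread between these samples, which may be technical. In such bulk samples, fewer cells of a type and less RNA per cell cannot be told apart.

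Secreted proteins enter the ER through the Sec61 translocon, are folded there with the help of chaperones such as BiP and of disulfide isomerases, and leave in vesicles coated by COPII. Receptors then bring escaped ER residents back from the Golgi in COPI vesicles. Procollagen is a long, rigid cargo that depends on this route, and tendon cells are known for making large amounts of type I collagen. Loss of Sec23a, Sec24d or Creb3l1 is known to disturb collagen secretion or the skeleton in vertebrates, and the comparison across stages asks whether the level of the secretory machinery rises with collagen production.

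Between E11.5 and E14.5 the machinery rose in part. At E14.5, 24 of the 48 tested genes were called higher and 2 were called lower than at E11.5 by limma with Benjamini-Hochberg adjustment over all genes tested (adjusted p under 0.05), against 22.9% called higher and 17.7% called lower (40.5% in either direction) among all genes tested. The median log2 change (E14.5 over E11.5) was 0.44 over these genes and 0.00 over all genes tested. The 48 genes were brighter than the genes they are set against. Their mean log2 signal on the E11.5 arrays lay between 11.12 and 11.25, and that of all genes tested between 9.32 and 9.34. The part of brightness in the share called was not tested. The groups moved unequally. In the return route 8 of 9 tested genes rose, in the translocon and TRAP group 5 of 8, in the COPII group 6 of 11 with 1 lower, among regulators and stress genes 3 of 6, and in ER folding 2 of 14 with 1 lower. The largest rises were those of Kdelr3, Creb3l1, Sec24d and Tmed3, and the chaperones Hspa5, Hsp90b1, Calr and Canx were not called. In 33 genes all 3 E14.5 arrays lay above all 3 E11.5 arrays, and in 3 genes all lay below, against 27.3% and 24.1% of all genes tested. limma's F-test for any difference among the 3 stages called 21 of the 48, against 33.7% of all genes tested. Of the 26 calls between E14.5 and E11.5, 14 were made under each of the 19 other settings tried.

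**Figure D1:**
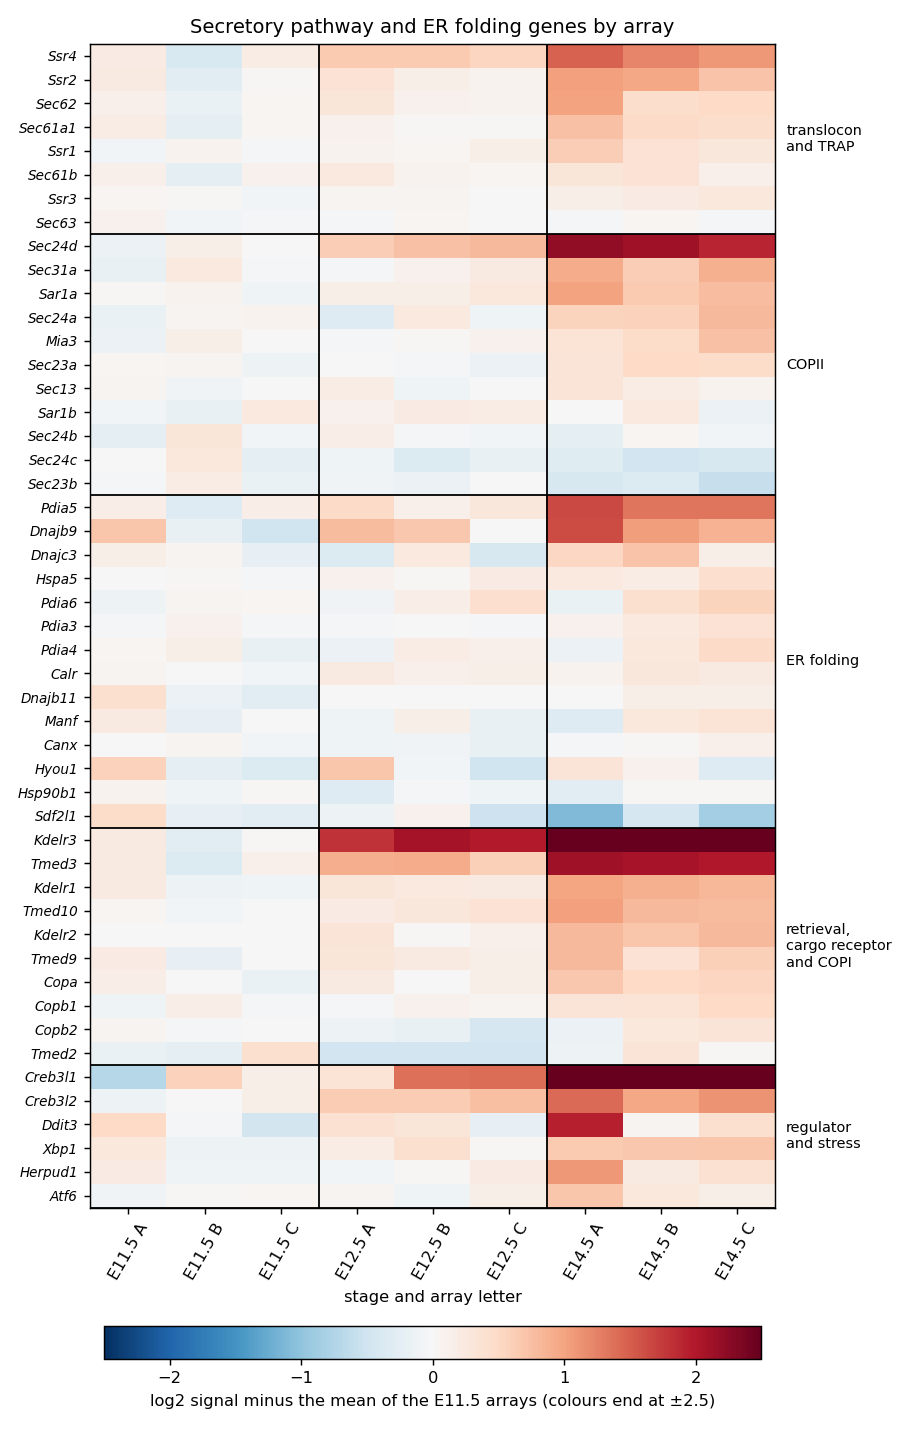
Log2 signal of 49 genes on each of the 9 arrays, minus the gene's mean over the 3 E11.5 arrays, in rows grouped by role. Colour deepens at E14.5 in the return route and in Sec24d, Creb3l1 and Pdia5, while most rows of ER folding stay pale. Tmed2 is drawn but was too dim to be tested.

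Scx, the gene the sort relied on, was bright at every stage, and its E14.5 and E11.5 ranges overlapped. Its E14.5 arrays all lay below its E12.5 arrays, with a log2 change of -0.62 that was not called. Scx averaged 11152 ± 3339 at E14.5 and 19338 ± 3927 at E11.5 (SD, n = 3 each), a log2 change of -0.81 ± 0.22 (SE, adjusted p = 0.0164). Tnmd, a marker of mature tendon, gave 9398, 6005 and 8797 at E14.5 and 42, 14.4 and 7.8 at E11.5, so in the youngest cells it was at or near the floor of 22.7 used for dim signals. Cartilage markers were present as well. The counts called in each marker list here, E14.5 against E11.5, stand against 22.9% called higher and 17.7% called lower among all genes tested. Of 12 cartilage markers, 8 were called higher at E14.5, and their summed signal lay between 10702 and 97791 at E14.5 and between 16419 and 20112 at E11.5. The E14.5 arrays differed in them. The median over the 12 markers of the log2 signal minus the E11.5 mean was 4.49, 2.07 and 0.64 on E14.5 arrays A, B and C. For 12 immediate early and heat shock genes, which rise in cells under acute stress, 7 were called higher and 1 lower, and the summed signal lay between 35567 and 80633 at E14.5 and between 17974 and 35282 at E11.5. Array A was the highest E14.5 array in both lists. The return-route genes had medians of 0.81, 0.69 and 0.79 and the whole set of 48 genes 0.53, 0.36 and 0.45 on the same arrays. Endothelial and blood markers had summed signals between 1101 and 1569 at E14.5 and between 328 and 574 at E11.5, with 4 of 5 tested called higher. Skeletal muscle markers summed between 8657 and 11819.7 at E14.5 and between 3743 and 6328 at E11.5, with 4 of 9 called higher. Bone markers summed 1617, 942 and 161 on E14.5 arrays A, B and C and between 140 and 187 at E11.5. The 1 bone marker tested was not called, and the 1 neural marker tested was called lower (log2 change -1.88). The part of these cells in the results below was not tested.

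**Figure D2:**
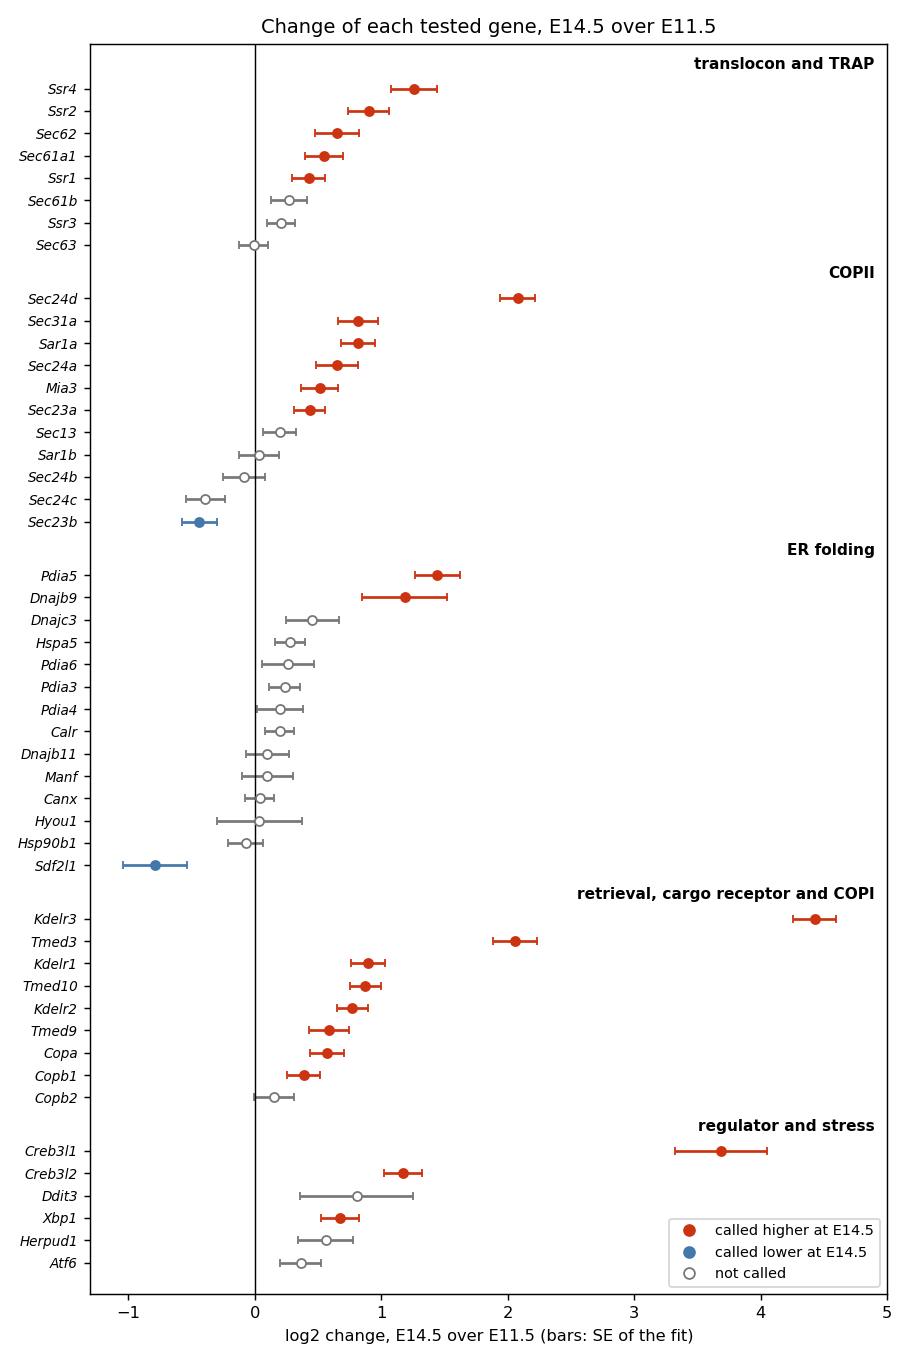
Log2 change of each of the 48 tested genes, E14.5 over E11.5, with the SE of the fit as bars, grouped by role and ordered by size. Filled points were called; Kdelr3 at 4.43 and Creb3l1 at 3.69 lie far right of the rest, and 11 of the 14 ER folding genes are open points.

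Promoters are shown for the 3 genes with the largest called rise that have a RefSeq promoter window (Kdelr3, Sec24d and Tmed3) and for Hspa5 and Hsp90b1, textbook targets of the unfolded protein response that were not called. The windows run from 250 bases before to 50 after the annotated start on mouse build GRCm38.p6, are written on the gene's strand, and come from RefSeq. The windows are chr15:79516158-79516457 on the plus strand, chr3:123267246-123267545 on the plus strand, chr9:89704994-89705293 on the minus strand, chr2:34771840-34772139 on the plus strand and chr10:86705395-86705694 on the minus strand. Capitals mark matches on either strand to the ER stress response element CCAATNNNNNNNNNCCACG or to TGACGTGG, the core of the unfolded protein response element.
Kdelr3: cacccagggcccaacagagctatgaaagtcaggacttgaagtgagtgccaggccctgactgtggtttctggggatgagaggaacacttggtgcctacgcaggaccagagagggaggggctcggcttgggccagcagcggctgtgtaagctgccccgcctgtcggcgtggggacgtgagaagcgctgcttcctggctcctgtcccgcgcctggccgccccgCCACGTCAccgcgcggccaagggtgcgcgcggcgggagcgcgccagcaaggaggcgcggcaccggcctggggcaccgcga
Sec24d: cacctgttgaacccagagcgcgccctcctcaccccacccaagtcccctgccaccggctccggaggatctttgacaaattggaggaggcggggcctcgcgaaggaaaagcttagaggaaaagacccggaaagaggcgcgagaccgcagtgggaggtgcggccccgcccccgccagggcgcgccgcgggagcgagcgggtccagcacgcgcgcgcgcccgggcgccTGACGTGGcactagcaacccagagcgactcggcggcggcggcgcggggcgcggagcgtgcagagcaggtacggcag
Tmed3: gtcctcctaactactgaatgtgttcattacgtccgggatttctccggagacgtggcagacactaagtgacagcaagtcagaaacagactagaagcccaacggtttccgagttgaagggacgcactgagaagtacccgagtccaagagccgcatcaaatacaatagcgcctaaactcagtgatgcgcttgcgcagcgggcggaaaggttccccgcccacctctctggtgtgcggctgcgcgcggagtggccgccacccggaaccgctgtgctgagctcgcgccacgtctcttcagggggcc
Hspa5: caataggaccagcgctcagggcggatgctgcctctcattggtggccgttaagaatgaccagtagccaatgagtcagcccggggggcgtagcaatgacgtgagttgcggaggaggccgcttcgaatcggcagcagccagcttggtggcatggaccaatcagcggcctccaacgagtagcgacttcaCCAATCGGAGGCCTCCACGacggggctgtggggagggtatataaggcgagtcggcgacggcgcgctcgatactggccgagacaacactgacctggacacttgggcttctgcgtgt
Hsp90b1: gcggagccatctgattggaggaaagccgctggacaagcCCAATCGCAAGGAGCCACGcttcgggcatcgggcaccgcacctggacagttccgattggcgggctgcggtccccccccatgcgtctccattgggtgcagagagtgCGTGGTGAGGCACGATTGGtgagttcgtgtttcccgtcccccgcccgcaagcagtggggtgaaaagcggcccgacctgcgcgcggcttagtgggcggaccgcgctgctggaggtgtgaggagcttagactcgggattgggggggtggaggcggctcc
TGACGTGG begins at position -30 of Kdelr3, where it stands on the opposite strand, and at -26 of Sec24d, counted from the annotated start. Tmed3 has neither element in its window. Hspa5 has 1 ER stress response element, beginning at -65, and Hsp90b1 has 2, at -212 and -107, the second on the opposite strand.

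The same search was run on every window. Of the 50 genes, 42 had a window. The ER stress response element was found in 6 of them, which are Calr, Canx, Dnajc3, Hsp90b1, Hspa5 and Pdia6, all of the folding group, against 37 of 27025 genes with a window (0.137%). None of these 6 genes was called at E14.5 against E11.5, against 40.5% of all genes tested in either direction. In the whole folding group, 11 of 14 tested genes were not called. Of the 6, Hspa5 was called in 2 of the 19 other settings and Dnajc3 in 1. TGACGTGG was found in Kdelr3, Sec24d, Sec23a, Copb1 and Copb2, which is 5 of 42, against 0.714% of all genes with a window. Of those 5, Kdelr3, Sec24d, Sec23a and Copb1 rose, against 22.9% of all genes tested and 24 of the 48 tested genes of the set. In their own groups, with or without the element, 8 of 9 return-route genes and 6 of 11 COPII genes rose. Of the 19 other settings, 4 did not call Sec23a and 10 did not call Copb1. Copb2 had a log2 change of 0.15 ± 0.16 (SE, adjusted p = 0.484). The second form of the stress element, ATTGGNCCACG, was found in Dnajb11 and Herpud1 and in 0.0444% of all genes with a window, and neither gene was called. No 2 matches overlapped. A match is a string of letters in the window, not a measured binding site.

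Among genes of the translocon, Ssr4, Ssr2, Sec62, Sec61a1 and Ssr1 rose and the others were not called. Ssr4, the delta subunit of the TRAP complex that helps proteins through the translocon, gave 5973, 4969.7 and 4534 at E14.5 and 2470.4, 1638 and 2423 at E11.5. Its change was 2.39-fold (log2 1.26 ± 0.18 SE, adjusted p = 0.000641). The groups did not overlap, but Ssr4 was called by 1 of its 3 tested probe sets, and the log2 changes of the 3 lay between 0.02 and 1.26. The mean over those probe sets was 0.58 (adjusted p = 0.0603). Ssr2, the beta subunit, gave 4112, 3938 and 3334 at E14.5 and 2369, 1689.5 and 2082 at E11.5, a log2 change of 0.90 ± 0.16 (SE, adjusted p = 0.00208). Sec61a1, which forms the channel itself, gave 8433, 7099 and 6881 at E14.5 and 5817, 4312 and 5266 at E11.5. All 3 late arrays were higher than the early ones, and the log2 change was 0.55 ± 0.15 (SE, adjusted p = 0.0159). Sec61a1 was called higher by 4 of its 6 probe sets. It was not called without E11.5 array B (adjusted p = 0.0512).

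Sec62, which with Sec63 helps proteins enter the channel, gave 6928, 4635 and 4868 at E14.5 and 3727, 3049.8 and 3556 at E11.5. Array A was the highest of the late arrays, and the log2 change was 0.65 ± 0.17 (SE, adjusted p = 0.015). It was called higher by 3 of 5 probe sets, and the mean over all of them was 0.31 (adjusted p = 0.0794). Without E11.5 array B the adjusted p was 0.0523. Ssr1, the alpha subunit of TRAP, changed by 0.42 ± 0.13 (log2, SE, adjusted p = 0.0261), and 6 of the 19 other settings did not call it, among them leaving out E11.5 array A or C or E14.5 array A (adjusted p = 0.0783, 0.0674 and 0.0734). Its 4 probe sets spread between -0.46 and 0.87, and their mean was 0.21 (adjusted p = 0.236). Of the genes not called, Sec63 had signals between 1383 and 1477 at E14.5 and between 1368 and 1533 at E11.5, with a 95% interval of the log2 change of -0.27 to 0.25. For Sec61b the interval was -0.05 to 0.59 and for Ssr3 it was -0.05 to 0.46.

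In the folding group Pdia5 and Dnajb9 rose, Sdf2l1 fell, and the 11 others were not called. Pdia5, a protein disulfide isomerase, gave 1769, 1429 and 1422 at E14.5 and 628, 451 and 630.5 at E11.5. The stages did not overlap, and the change was 2.72-fold (log2 1.44 ± 0.18 SE, adjusted p = 0.000236). Dnajb9, a co-chaperone of BiP, gave 4237, 2833 and 2492 at E14.5 and 2210.1, 1199 and 962 at E11.5. The E11.5 arrays spread over more than the distance to the lowest E14.5 array, and the log2 change was 1.18 ± 0.34 (SE, adjusted p = 0.0192). It was not called without E14.5 array A (log2 0.96, adjusted p = 0.0654), nor without E11.5 array B or C (adjusted p = 0.0621 and 0.0646). Sdf2l1, a luminal cofactor of BiP and its partners, gave 575, 916 and 688 at E14.5 and 1695, 1074 and 1027 at E11.5. It was lower on every late array, with a log2 change of -0.79 ± 0.25 (SE, adjusted p = 0.0322). Array A was the lowest at E14.5 and the highest at E11.5, and without the 3 arrays of letter A the change was -0.40 (adjusted p = 0.268). It was not called without E14.5 array A or C or without E11.5 array A (adjusted p = 0.102, 0.079 and 0.107).

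None of the major chaperones was called. Hspa5, which encodes BiP, gave 19242, 18522 and 21710.3 at E14.5 and 16501, 16571 and 15938 at E11.5. The late arrays were all higher, but by 1.21-fold, and the 95% interval of the log2 change was 0.01 to 0.55 (adjusted p = 0.096). Hspa5 was called higher with no filter and with the trended and robust prior (adjusted p = 0.0313 and 0.0321). Of the other Hspa5 probe sets, 1 was called, with a log2 change of 0.50 (adjusted p = 0.0366 over 20885 probe sets), and 1 gave -0.22. Hsp90b1, the ER form of the HSP90 chaperone, gave 11720.3, 14657 and 14615 at E14.5 and 15146, 13332 and 14508 at E11.5. These ranges overlap, and the interval was -0.39 to 0.24. For the lectin chaperones Calr and Canx, which hold glycoproteins during folding, the intervals were -0.07 to 0.46 and -0.23 to 0.30. The disulfide isomerases Pdia3, Pdia4 and Pdia6 had intervals of -0.04 to 0.51, -0.22 to 0.61 and -0.20 to 0.72. A second, dim probe set of Pdia3 was called higher, with a log2 change of 0.93 (adjusted p = 0.00224). With that probe set averaged in, Pdia3 was called higher, with a log2 change of 0.58 (adjusted p = 0.00329). Each of these intervals ends below a doubling, which is 1 on the log2 scale.

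The remaining folding genes, Hyou1, Manf, Dnajb11 and Dnajc3, were not called either. Hyou1, a nucleotide exchange factor for BiP, gave 1427, 1235 and 909 at E14.5 and 1693, 975 and 901 at E11.5. Letter A was the highest array at both stages, and the interval of the log2 change was -0.72 to 0.79. Manf, a secreted ER stress factor, gave 4576, 6889 and 7292 at E14.5 and 6709.7, 4954 and 5651 at E11.5, with an interval of -0.36 to 0.55. Dnajb11 and Dnajc3, co-chaperones of BiP, had intervals of -0.29 to 0.48 and -0.02 to 0.93. Dnajc3 was higher on all late arrays than on the early ones, at 2373, 2718 and 1854 at E14.5 and 1851, 1738 and 1441 at E11.5.

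**Figure D3:**
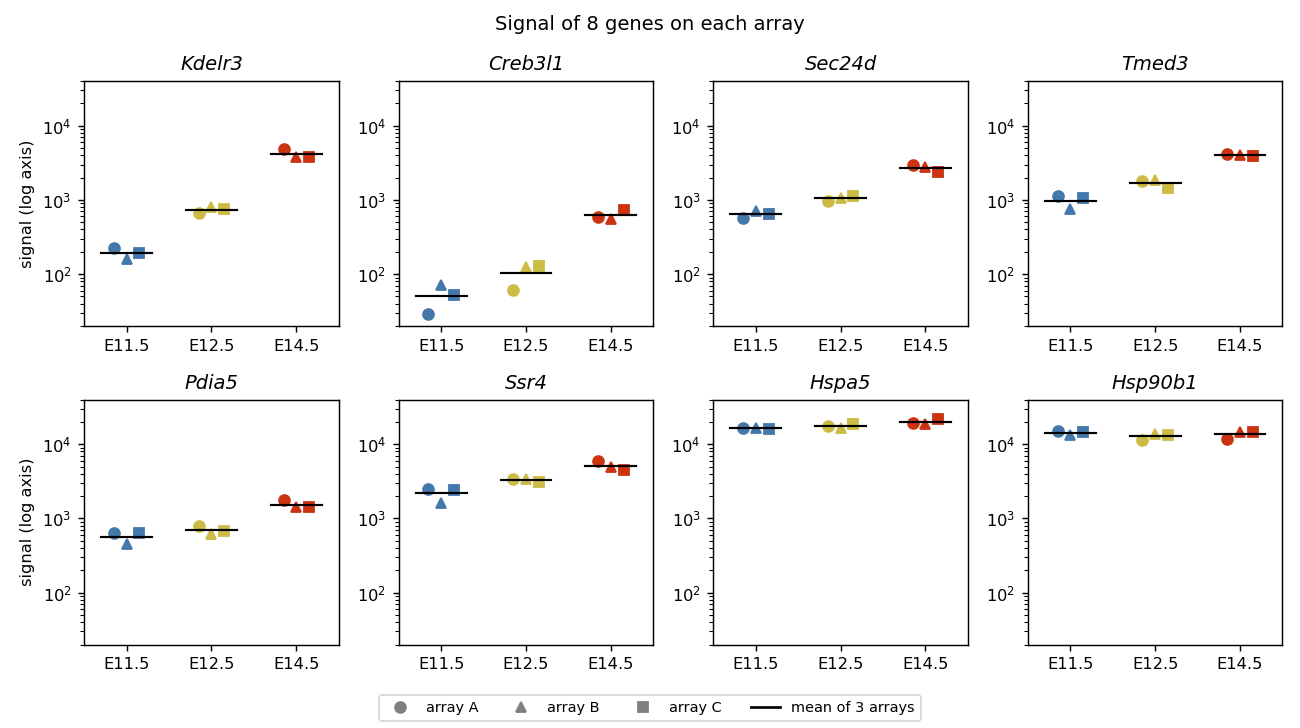
Signal of 8 genes on each array, on a log axis, by stage from E11.5 to E14.5; symbols mark the array letter and bars the mean of 3 arrays. Kdelr3, Creb3l1, Sec24d, Tmed3, Pdia5 and Ssr4 step up at E14.5, while Hspa5 differs by 1.21-fold (mean 19825 at E14.5 and 16337 at E11.5) and the stages of Hsp90b1 overlap.

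In the COPII coat the rise was carried by some paralogs and not by others. Sec24d, a cargo-binding subunit of the coat, gave 2966, 2781 and 2376 at E14.5 and 577, 706 and 639.6 at E11.5. The stages lay far apart, 4.22-fold, with a log2 change of 2.08 ± 0.14 (SE, adjusted p = 6.89e-06). Sec31a, of the outer cage, gave 2406, 1925 and 2341 at E14.5 and 1101, 1495 and 1212 at E11.5, a log2 change of 0.81 ± 0.16 (SE, adjusted p = 0.00326). Sar1a, the GTPase that starts coat assembly, gave 6600.4, 5134 and 5569 at E14.5 and 3328, 3458 and 3026 at E11.5. Its groups did not overlap either, and its change was 0.81 ± 0.13 (log2, SE, adjusted p = 0.00131). Sec24a changed by 0.65 ± 0.17 (adjusted p = 0.0124). Mia3, also called TANGO1, which loads procollagen into carriers, gave 2673, 2906 and 3497 at E14.5 and 1909, 2337 and 2105 at E11.5. All late arrays were higher, and the log2 change was 0.51 ± 0.14 (SE, adjusted p = 0.0183), not called in 4 of the 19 other settings, among them leaving out E11.5 array A or E14.5 array C (adjusted p = 0.0667 and 0.0642).

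Sec23a and Sec23b, alternative forms of the same inner coat subunit, went opposite ways. Sec23a gave 4826, 5455 and 5314 at E14.5 and 4003, 4036 and 3528 at E11.5, a log2 change of 0.43 ± 0.12 (SE, adjusted p = 0.0194). Sec23b gave 1945, 2025 and 1704 at E14.5 and 2511, 2906 and 2288 at E11.5, a log2 change of -0.44 ± 0.14 (SE, adjusted p = 0.0296). Neither pair of ranges overlapped, and both changes were under 1.5-fold in size. Single arrays decided both calls. Sec23a was not called without E11.5 array C or without E14.5 array B or C (adjusted p = 0.067, 0.0595 and 0.0547), and Sec23b was not called without E11.5 array A or B or without E14.5 array C (adjusted p = 0.0638, 0.0932 and 0.0965). Of the others, Sec24c had a log2 change of -0.39 ± 0.15 (adjusted p = 0.0664), with all late arrays below the early ones. The intervals were -0.45 to 0.28 for Sec24b, -0.32 to 0.38 for Sar1b and -0.10 to 0.49 for Sec13, an outer cage subunit.

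The return route from the Golgi held the largest change and the most uniform rise. Kdelr3, 1 of 3 KDEL receptors that catch escaped ER residents by their C-terminal tail, gave 4863, 3733 and 3751 at E14.5 and 222, 159 and 195 at E11.5. The stages lay far apart on every array, and the mean change was 21.5-fold (log2 4.43 ± 0.17 SE, adjusted p = 7.72e-07). Kdelr1 gave 6121, 5759.9 and 5499 at E14.5 and 3644, 2862 and 2873 at E11.5, a 1.86-fold change (log2 0.90 ± 0.13 SE, adjusted p = 0.000759). Kdelr2 gave 14292, 13187 and 14336 at E14.5 and 8224, 8170.3 and 8138 at E11.5. Its 3 early arrays were nearly equal, and the change was 1.7-fold (log2 0.77 ± 0.12 SE, adjusted p = 0.0011). All 3 KDEL receptors therefore rose, Kdelr3 by far more than the others.

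Members of the p24 family, transmembrane cargo receptors that cycle between ER and Golgi, rose too. Tmed3 gave 4159, 4005 and 3869.9 at E14.5 and 1122, 758 and 1053 at E11.5. The late arrays were close to each other and all higher, 4.16-fold on average (log2 2.06 ± 0.17 SE, adjusted p = 2.48e-05). Tmed10 gave 3938, 3367 and 3331 at E14.5 and 2008, 1847 and 1939.9 at E11.5, a log2 change of 0.87 ± 0.12 (SE, adjusted p = 0.000551). Tmed9 changed by 0.59 ± 0.16 (SE, adjusted p = 0.0152), and was not called without E11.5 array B (adjusted p = 0.0524). In the COPI coat itself, Copa gave 7424, 6616 and 6791 at E14.5 and 5264, 4659 and 4135 at E11.5, a log2 change of 0.57 ± 0.14 (SE, adjusted p = 0.00829). With its dim second probe set averaged in, the change was 0.96 (adjusted p = 0.0621). Copb1, the beta subunit, changed by 0.39 ± 0.13 (SE, adjusted p = 0.0384), but 10 of the 19 other settings did not call it, among them leaving out any 1 of the E14.5 arrays, E11.5 array A or C, or E12.5 array B or C, with adjusted p up to 0.121 for those. Copb2 was not called.

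The regulators of the machinery included the second largest rise. Creb3l1, also called OASIS, is an ER-anchored transcription factor known to act on collagen and secretory genes in bone. It gave 595, 549 and 731 at E14.5 and 29.2, 71.8 and 53.1 at E11.5. The early signals were below the median of all signals (90.6), the late ones far above it, and the change was 12.9-fold (log2 3.69 ± 0.36 SE, adjusted p = 6.31e-05). With the floor raised to that median the log2 change was 2.78 (adjusted p = 8.09e-07), so its size depends on how dim signals are treated. All E11.5 signals of Creb3l1 then equal the floor, so that p lacks their spread. Creb3l2, a close relative known for its role in cartilage secretion, gave 4691, 3429 and 3807 at E14.5 and 1596, 1747 and 1926 at E11.5, a 2.25-fold change (log2 1.17 ± 0.15 SE, adjusted p = 0.000301). Xbp1, whose spliced form is a main regulator of the unfolded protein response, gave 8632, 8779.9 and 8891 at E14.5 and 6559.9, 5039 and 5031 at E11.5, a log2 change of 0.67 ± 0.15 (SE, adjusted p = 0.00662). The spliced and unspliced forms were not told apart here. Atf6, a sensor of the unfolded protein response that itself acts as a transcription factor, gave 649, 480.1 and 445 at E14.5 and 381, 409 and 418 at E11.5, with a log2 change of 0.36 ± 0.16 (SE, adjusted p = 0.101).

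The stress markers Ddit3 and Herpud1 were highest on 1 array, E14.5 array A. Ddit3, which encodes the stress-induced factor CHOP, gave 1143, 314 and 393 on E14.5 arrays A, B and C and 422, 289.7 and 216 at E11.5. Only array A stood out, the stages overlapped, and the log2 change was 0.81 ± 0.45 (SE, adjusted p = 0.179), or 0.24 without that array. Herpud1, an ER-associated degradation factor induced by stress, gave 1550.3, 848 and 946 at E14.5 and 841, 679.5 and 680.1 at E11.5. Array A was again the highest, though all late arrays lay above the early ones. The log2 change was 0.56 ± 0.22 (SE, adjusted p = 0.0692), or 0.29 without array A. Herpud1 was called with the trended and robust prior (adjusted p = 0.0401). It was also called without E14.5 array B (log2 0.73, adjusted p = 0.0353). Outside the set, Ppp1r15a, which reverses the translation block of the stress response, gave 3668, 1493 and 1137 at E14.5 and 1103, 357 and 566 at E11.5 (adjusted p = 0.0312). Atf3 gave 1636, 300.2 and 193 at E14.5 and 87.9, 20.4 and 30.8 at E11.5 (adjusted p = 0.00459). The same array was the highest in cartilage markers and in immediate early and heat shock genes, as given above, and the part of either in these values was not tested.

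**Figure D4:**
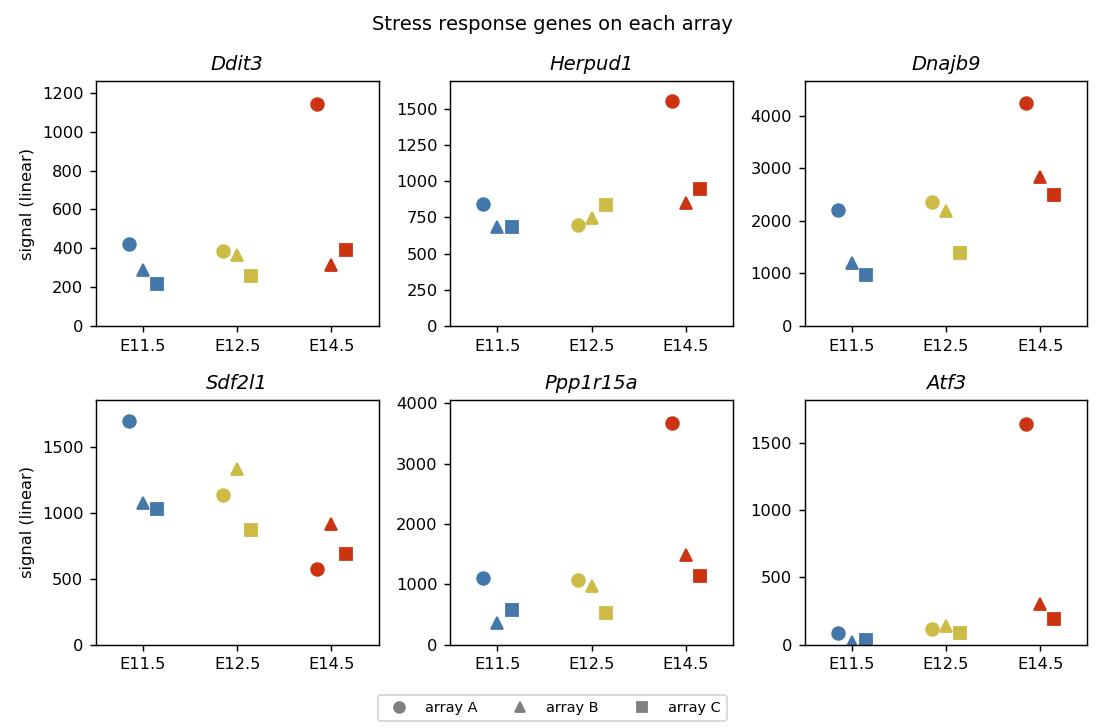
Signal of 6 stress response genes on each array, on linear axes that start at 0, by stage; symbols mark the array letter. At E14.5 array A gives 1143 for Ddit3 and 1636 for Atf3, far above arrays B and C, and Sdf2l1 is lowest on that array.

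Paralogs were compared as log2 ratios within each array, which need no level to be set against another, only the change of the ratio. For Sec23a over Sec23b the ratio, minus its E11.5 mean, was 0.72, 0.84 and 1.05 on the E14.5 arrays and lay between -0.12 and 0.08 at E11.5. For Sec24d over Sec24c it was 2.51, 2.60 and 2.29 at E14.5. On average over the E14.5 arrays, the ratio of Sec24d to Sec24a changed by 1.43 and to Sec24b by 2.16. The ratio of Kdelr3 changed by 3.53 to Kdelr1 and by 3.66 to Kdelr2, and that of Tmed3 by 1.18 to Tmed10 and by 1.47 to Tmed9. Creb3l1 over Creb3l2 changed by 2.52. Of 15 paralog pairs compared, the E14.5 ratios of 13 did not overlap those of E11.5. Many of these pairs share a gene, so they do not count separately. The share among other gene pairs was not computed. Of all single genes tested, 27.3% lay wholly above and 24.1% wholly below in that comparison. Exact two-sided permutation of 3 arrays against 3 cannot give a p below 0.1, so no pair could pass, and after adjustment over the 15 pairs the p-values lay between 0.115 and 0.4. The 2 pairs that overlapped were Kdelr1 with Kdelr2 and Sec24b with Sec24c.

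Few of the secretory genes were called at E12.5 against E11.5, and more calls fell in the later interval. The same held among all genes tested, with 3.55% called in the earlier interval and 22.0% in the later one. At E12.5, 4 of 48 genes were called higher than at E11.5 and 0 were called lower by limma, against 3.11% and 0.441% (3.55% in either direction) of all genes tested. At an unadjusted p under 0.05 the counts were 7 higher and 0 lower, against 12.2% and 3.74% of all genes tested. The E12.5 arrays lay wholly above the E11.5 arrays in 10 genes and wholly below in 2, against 15.8% and 7.75% of all genes tested. Kdelr3 gave 659.8, 805 and 753 at E12.5, a log2 change over E11.5 of 1.96 ± 0.17 (SE, adjusted p = 0.00134). Tmed3 gave 1821, 1833 and 1451, a change of 0.81 ± 0.17 (adjusted p = 0.0375). Sec24d gave 975, 1062 and 1115, a change of 0.72 ± 0.14 (adjusted p = 0.0271). Creb3l2 gave 2723, 2712 and 2967, a change of 0.68 ± 0.15 (adjusted p = 0.0419). Kdelr3 was called under all 19 other settings, Sec24d in all but 5, and Tmed3 and Creb3l2 were lost in 13 each. With the mean over its probe sets, dim ones included, the E12.5 change of Tmed3 was 0.20 (adjusted p = 0.83). Leaving out any E11.5 or E12.5 array, or E14.5 array B or C, brought the count to 1 or 2.

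At E14.5, 18 of 48 genes were called higher than at E12.5 and 0 lower, against 12.6% and 9.32% (22.0% in either direction) of all genes tested. At an unadjusted p under 0.05 the counts were 26 higher and 2 lower, against 18.1% and 17.9% of all genes tested. The E14.5 arrays lay wholly above the E12.5 arrays in 29 genes and wholly below in 1, against 20.6% and 21.9% of all genes tested. The 18 genes were Kdelr1, Kdelr2, Kdelr3, Tmed3, Tmed10 and Copa of the return route, Sec23a, Sec24a, Sec24d, Sec31a, Sar1a and Mia3 of COPII, Sec61a1, Ssr2 and Ssr4 of the translocon, Pdia5, Creb3l1 and Creb3l2. Kdelr3 changed by 2.47 ± 0.17 (log2, SE, adjusted p = 3.17e-05) and Creb3l1, at 60.7, 124 and 128 at E12.5, by 2.65 ± 0.36 (adjusted p = 0.00113). Sec24d changed by 1.36 ± 0.14, Tmed3 by 1.24 ± 0.17 and Pdia5 by 1.15 ± 0.18. Ssr4 changed by 0.65 ± 0.18, or by 0.36 (adjusted p = 0.285) with the mean over its probe sets. With the array letters as a block, Sec62, Dnajb9 and Dnajc3 were called as well (adjusted p = 0.033, 0.0211 and 0.0216, against 0.0766, 0.173 and 0.0654 without it). The count was 10 without E12.5 array C and 7 without the 3 arrays of letter A. Sec24d, Pdia5, Kdelr1, Kdelr2, Kdelr3, Tmed3 and Creb3l1 were called under all 19 other settings.

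Whether the later interval differed from the earlier one was tested gene by gene, as the E14.5 minus E12.5 change less the E12.5 minus E11.5 change. No gene of the 48 was called by limma, against 0.769% of all genes tested, which is the share called in either direction. At an unadjusted p under 0.05, 7 had a positive difference and 0 a negative one, against 5.48% and 5.88% of all genes tested. The difference was 1.61 ± 0.63 for Creb3l1 (log2, SE, 95% interval 0.21 to 3.02, adjusted p = 0.346). With the floor raised to the median of all signals it was 2.14 (adjusted p = 0.00439). For Kdelr3 the interval was -0.15 to 1.18, so a steeper later rise was not shown. The intervals differ in length, and the test is per interval.

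The collagen genes themselves had larger median changes than the secretory genes. All 11 tendon collagens and all 12 collagen modification genes were called higher at E14.5 than at E11.5, against 22.9% of all genes tested. The median log2 changes of the 2 lists were 2.78 and 1.39, against 0.44 for the secretory genes. These lists were written with earlier results of these data known. Col1a1 gave 14420.2, 9908 and 11620.4 at E14.5 and 921, 1211 and 1242 at E11.5, a log2 change of 3.41 ± 0.18 (SE, adjusted p = 1.91e-06). Col14a1, a fibril-associated collagen, changed by 5.16 ± 0.26, and Col1a2 and Col3a1, bright at every stage, by 0.89 ± 0.17 and 0.87 ± 0.18. On each array the median over a list of the log2 signal minus the E11.5 mean was 0.56, 0.83 and 0.86 at E12.5 and 3.06, 2.80 and 2.92 at E14.5 for collagens. It was 0.41, 0.41 and 0.57 at E12.5 and 1.90, 1.02 and 1.35 at E14.5 for collagen modification genes. The largest changes there were those of P4ha3 at 2.76 ± 0.18, Crtap at 2.11 ± 0.17 and P3h1 at 1.90 ± 0.19 (log2, SE, E14.5 over E11.5), and P3h1 and Crtap belong to the complex that hydroxylates collagen prolines in the ER. For the 48 secretory genes it was 0.11, 0.11 and 0.10 at E12.5 and 0.53, 0.36 and 0.45 at E14.5, and for ER folding genes -0.07, 0.12 and -0.01 at E12.5 and 0.05, 0.25 and 0.29 at E14.5. The median over all genes tested lay between 0.01 and 0.07 on these arrays. The stages are the same samples in each list, so the lists share whatever moved with stage.

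**Figure D5:**
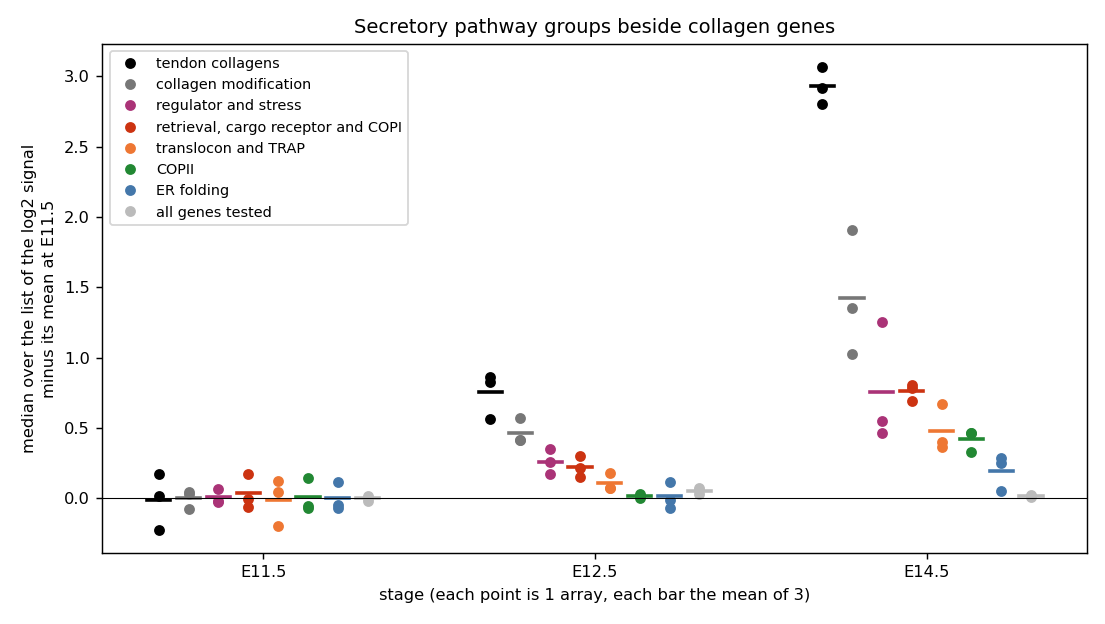
For 5 groups of secretory genes, 2 collagen lists and all genes tested, the median over the list of the log2 signal minus the gene's mean at E11.5, by stage; each point is 1 array and each bar the mean of 3. At E14.5 collagens lie between 2.80 and 3.06, the return-route genes between 0.69 and 0.81, and the ER folding genes between 0.05 and 0.29.

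Other genes of the same pathway, from further lists chosen by function, were followed in the same fit. Of 80 tested, 33 were called higher and 3 lower at E14.5 against E11.5, with a median log2 change of 0.39, against 22.9% higher and 17.7% lower among all genes tested, the shares against which the counts of each list below stand. The oligosaccharyltransferase, which adds sugar chains in the ER, had 8 of 11 genes higher, among them Krtcap2 (0.74 ± 0.16) and Rpn2 (0.69 ± 0.12, log2 and SE). Other ER folding enzymes had 10 of 17 higher. The leaders there were FK506-binding proline isomerases, Fkbp14 at 2.14 ± 0.16, Fkbp7 at 2.02 ± 0.16, Fkbp9 at 1.82 ± 0.20 and Fkbp11 at 1.70 ± 0.19. Fkbp14 gave 3647, 2953 and 3148 at E14.5 and 797, 616 and 802 at E11.5 (adjusted p = 1.07e-05), with no overlap. The signal recognition particle and its receptor had 1 of 7 higher, Srpr at 0.69 ± 0.16, and the signal peptidase 1 of 5, Spcs1 at 0.52 ± 0.17.

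Among other COPII and exit-site genes, 4 of 10 rose and Klhl12 fell. Klhl12, an adaptor of the ligase that enlarges COPII coats for procollagen in cultured cells, gave 637, 763 and 676 at E14.5 and 1261, 1146 and 1020.2 at E11.5, a log2 change of -0.72 ± 0.13 (SE, adjusted p = 0.00222). Sec16b changed by 1.70 ± 0.30 at low signals, and the cargo receptors Surf4 and Lman1 by 1.05 ± 0.13 and 0.70 ± 0.12. Among other COPI and p24 genes, 3 of 11 rose and 1 fell. Copz2, a zeta subunit of COPI, gave 2327, 1987 and 1895 at E14.5 and 342, 238 and 483 at E11.5, a log2 change of 2.60 ± 0.23 (SE, adjusted p = 3.37e-05). Copg2, a gamma subunit, changed by -0.76 ± 0.16 (adjusted p = 0.005). Among unfolded protein response sensors and targets, 3 of 9 rose and Asns fell, and of ER-associated degradation genes 3 of 10 rose. At E12.5 against E11.5, 3 of the 80 were called higher and 0 lower, against 3.11% and 0.441% of all genes tested, a share near the background. At E14.5 against E12.5, 18 were called higher and 0 lower, against 12.6% and 9.32%.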

How the data were processed

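The authors deposited 1 signal intensity per probe set and array. The submitters' processing notes name the MAS5 method and Expression Console 1.1. The mean of each array's signals, without the lowest and highest 2%, was 500, so the arrays were already scaled and were not normalized again. Of 45101 probe sets, 34945 listed 1 gene symbol and were used. For each of 18193 genes the brightest probe set by mean log2 signal stood for the gene (cross-hybridizing types only where there was no other), and 18032 were found in the RefSeq mouse gene table by gene identifier. Signals were floored at 22.7 (the 25th percentile), put on the log2 scale, and tested where they exceeded 90.6 (the median) on at least 3 of 9 arrays. Array medians ranged from 68.7 to 118, and 3 arrays per stage limit the precision.

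All 9 arrays entered 1 fit in limma 3.58.1 (R 4.3.3, 6 residual degrees of freedom), with two-sided contrasts between stages, and calls were made at 0.05 after Benjamini-Hochberg adjustment over 11575 genes. The fit was tested on simulated data. A probe set's own adjusted p is over 20885 probe sets.

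The members, the lists and the tests were chosen with earlier results of these data known. Any of the 50 genes could be named. From each other list, up to 4 called genes with the largest change per contrast could be named, as could Scx, Tnmd, Mkx, Col1a1, Col1a2, Col3a1, Sox9, Col2a1, Acan, Atf3 and Fos.

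The labels do not say what the letters A, B and C share. After removing stage means, arrays of the same letter correlated across genes at 0.520, 0.133 and 0.332 between E12.5 and E11.5 and at 0.310, 0.121 and 0.289 between E14.5 and E12.5, so these were also fitted as pairs, from the data alone. Alternatives were other floors, filters, scalings, probe set rules and priors, fits of the compared stages only, the letters as a block, and arrays left out.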

Additional observations from a re-analysis of the deposited data

How the results depend on the processing

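Genes called higher at E14.5 over E11.5 numbered between 20 and 26 under all alternatives, against 24, and between 20 and 24 with 1 array left out. Genes called lower numbered 2, became 1 with no filter or with a fit of the compared stages only and 0 without the arrays of letter A, became 3 with median centring or with the trended and robust prior (Sec24c added), and lay between 0 and 3 with 1 array left out. For E12.5 over E11.5 the 4 called higher became 2 with no filter, with median centring or with the mean of probe sets and 1 without letter A, and lay between 1 and 4 with 1 array left out. For E14.5 over E12.5 the 18 called higher became 7 without letter A and lay between 10 and 18 with 1 array left out, and 1 gene, Sec24c, was called lower with the mean of probe sets. The difference between intervals had 1 call, Creb3l1, with the higher floor, which sets its E11.5 signals equal, as given above. No direction of a called gene reversed. The fits without letter A and with 1 array left out use fewer samples; the cause of the other changes was not tested. With the letters as a replicate block, the counts higher were 25 for E14.5 over E11.5 (Dnajc3 gained, adjusted p = 0.0397), 4 for E12.5 over E11.5 and 21 for E14.5 over E12.5. Same-letter correlations between E14.5 and E11.5 were 0.313, -0.00516 and 0.238, so letter B gave no ground for pairing in that comparison. The block was fitted there too, as an alternative only. The block changed no other call of the secretory genes beside Sec62, Dnajb9 and Dnajc3 at E14.5 over E12.5, given above. Of 25 genes with over 1 tested probe set, 13 had the same call in all of them at E14.5 over E11.5 and 0 were called in opposite directions. The dimmest genes, Creb3l1 and Tmed2, are limited by their signal over background.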
